A study of Mus musculus with 32 samples.

Results

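The 9 serotonin receptor genes described here are Htr1a, Htr1b, Htr1f, Htr2a, Htr2c, Htr3a, Htr4, Htr5a and Htr7. They were taken by symbol from a table of 23958 genes, and each of the 9 had a row. RNA came from the frontal cortex (infralimbic and prelimbic areas) of 32 mice, each of which had been inoculated with the gut microbiota of a primate. The donor was human for 12 mice, squirrel monkey (Saimiri boliviensis) for 8 and macaque (Macaca mulatta) for 12. Human microbiota went to batches A (4 mice) and B (8), squirrel monkey microbiota to C (4) and D (4), and macaque microbiota to E (5) and F (7). The labels state neither strain, age, sex and time after inoculation nor what microbiota the mice had before it, and no group without a primate microbiota was analysed. What the labels call a batch is not explained there. Because each batch holds a single donor species, batch and donor cannot be told apart. The same holds for the column of the library plate, read from the library names: columns 1 and 2 hold human, 3 squirrel monkey and 4 and 5 macaque samples.

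Serotonin reaches the cortex along fibres of raphe neurons in the brain stem, so the cortex holds little mRNA for making serotonin and much of the machinery for sensing it. Its receptors fall into classes by the signal they start. Htr1a, Htr1b, Htr1f and Htr5a couple to Gi/o proteins, which lower cyclic AMP and, for some receptors, open potassium channels. Htr2a and Htr2c couple to Gq and phospholipase C, which releases calcium from internal stores. Htr4 and Htr7 couple to Gs and raise cyclic AMP, whereas Htr3a is a subunit of an ion channel that serotonin opens directly. In the prefrontal cortex Htr1a dampens and Htr2a excites pyramidal neurons, Htr1b sits largely on axon terminals where it limits transmitter release, and Htr3a marks a class of interneurons.

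The promoters of the receptors whose levels moved together across mice (Htr1a with Htr2a, and Htr1b with Htr2a, described further on) are shown for reference. They are the 250 bases before the RefSeq start of each gene in build GRCm38.p6, read 5′ to 3′ on the gene's strand. Htr1a lies at chr13:105443443-105443692 (+), Htr1b at chr9:81633833-81634082 (-) and Htr2a at chr14:74640624-74640873 (+). Capitals mark a match to GGGCGG on either strand.
Htr1a: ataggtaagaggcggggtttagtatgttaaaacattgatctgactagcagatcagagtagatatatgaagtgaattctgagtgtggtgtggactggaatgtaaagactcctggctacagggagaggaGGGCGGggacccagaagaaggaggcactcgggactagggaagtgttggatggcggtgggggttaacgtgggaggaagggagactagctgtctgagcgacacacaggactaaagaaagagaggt
Htr1b: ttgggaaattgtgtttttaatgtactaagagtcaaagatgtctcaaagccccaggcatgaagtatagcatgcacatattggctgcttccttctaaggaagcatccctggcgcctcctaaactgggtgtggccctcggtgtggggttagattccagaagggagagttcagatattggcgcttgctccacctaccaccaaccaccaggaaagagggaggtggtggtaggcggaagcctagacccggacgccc
Htr2a: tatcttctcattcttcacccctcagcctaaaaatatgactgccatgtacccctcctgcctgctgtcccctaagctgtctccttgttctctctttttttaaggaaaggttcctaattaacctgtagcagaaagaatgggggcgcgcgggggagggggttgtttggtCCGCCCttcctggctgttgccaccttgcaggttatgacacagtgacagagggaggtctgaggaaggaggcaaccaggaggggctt
GGGCGG, the core of a GC box, was found 1 time in the Htr1a window, 1 time in that of Htr2a and 0 times in that of Htr1b. Of all 32851 promoters in the RefSeq table, 32.7% held it. TATAAA on either strand was found in none of the 3 windows and in 12.4% of all promoters. GC content was 50.4% for Htr1a, 52.4% for Htr1b and 52.8% for Htr2a, beside a median of 52.4% over all promoters. A match is a string of letters and no evidence of binding. The Htr1b start did not lie in a GENCODE transcript of the gene, so its window is uncertain.

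Levels are given in CPM, the counts of a gene relative to the library total after adjustment by edgeR's TMM factors. TagSeq counts 1 tag per transcript near its 3′ end, so levels of different genes can be set side by side without dividing by length. In the GENCODE M21 gene models the receptors have from 1 (such as Htr2a) to 6 (Htr2c) distinct 3′ ends. Htr2c alone overlaps genes on its own strand (8), and the part of this in its level was not tested. Library totals ran from 1035036 to 2089308 counts, and 1 count equals about 0.652 CPM in a mouse of median depth. The 9 receptors together had 4326 counts over the 32 mice, or 88.8 ± 17.1 CPM (SD, n = 32) per mouse. The sum was 91.0 ± 19.6 CPM (SD, n = 12) in mice with macaque microbiota, 86.9 ± 13.4 (SD, n = 8) with squirrel monkey microbiota and 87.9 ± 17.7 (SD, n = 12) with human microbiota. These means lie closer together than the spread within any group.

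Htr2a was the most abundant receptor at 20.3 CPM over all mice, followed by Htr2c at 16.5, Htr1b at 13.03, Htr1a at 12.7 and Htr5a at 9.50 CPM. The remaining 4 genes were at 3.21 CPM (Htr4) to 4.85 CPM (Htr3a). Neighbours among the first 4 differed by less than the SD of either gene over mice (4.30 to 9.45 CPM), as did neighbours among the last 4 (1.86 to 2.40 CPM), with Htr5a (SD 3.15 CPM) between the sets. As shares of the summed receptor counts, averaged over mice, the Gi/o-coupled class took 44.8%, the Gq-coupled class 40.7%, the Gs-coupled class 8.88% and the channel subunit 5.63%. The Gq-coupled share was 44.4% ± 4.94 (SD, n = 12) in the macaque group, 38.3% ± 4.74 (n = 8) in the squirrel monkey group and 38.6% ± 10.01 (n = 12) in the human group. The ranges of all 3 groups overlapped, and the shares were not tested.

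**Figure D1:**
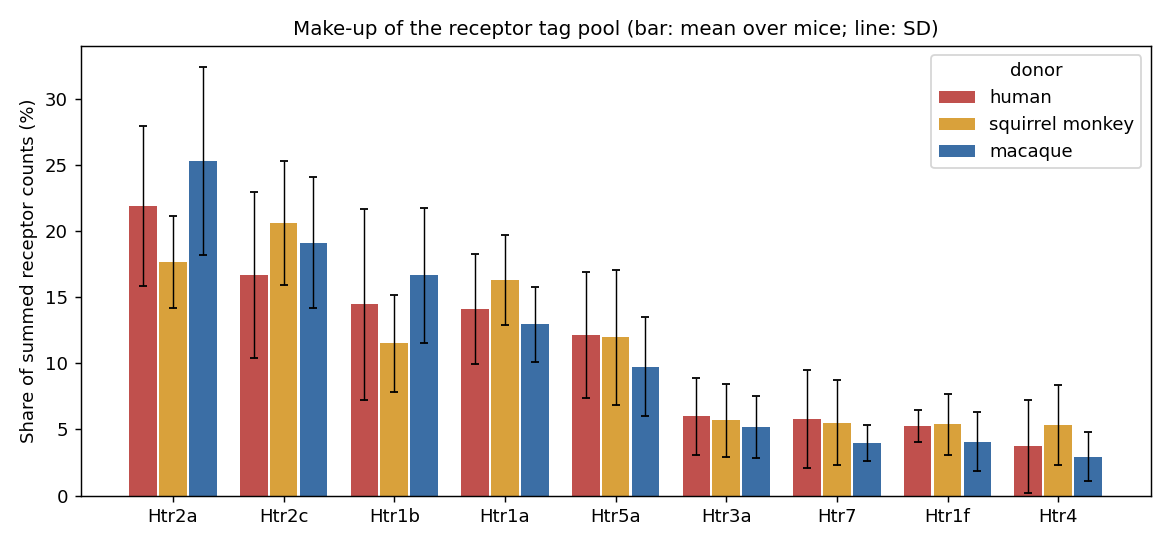
Share of the summed counts of the 9 receptor genes that each gene took, in percent, for mice with human, squirrel monkey or macaque microbiota; bars are means over mice and lines are SD. Htr2a takes 25.3% in the macaque group and 17.6% in the squirrel monkey group, and the error bars overlap for every gene.

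The question the groups pose is whether the donor of the microbiota is reflected in the brain. For the serotonin receptors no donor comparison passed the test. With edgeR's quasi-likelihood test and Benjamini-Hochberg adjustment over 12651 genes at a threshold of 0.05, 5 of the 9 receptors could be tested, and 4 (Htr1f, Htr3a, Htr4 and Htr7) had too few counts. In human against macaque, 0 of the 5 were called while 8.01% of all genes were (4.47% higher, 3.54% lower). The squirrel monkey group against macaque again gave 0 of 5, beside 0.64% of all genes (0.387% higher, 0.253% lower). Human against squirrel monkey gave 0 of 5 beside 0.134% (0.0158% higher, 0.119% lower), and the mean of the human and squirrel monkey groups against macaque gave 0 of 5 beside 5.51% (2.7% higher, 2.81% lower). The F-test for any difference among the groups called 0 of 5 beside 6.15%, with a smallest adjusted p of 0.248 for Htr2a.

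At an unadjusted p under 0.05 the 4 comparisons gave 0, 2, 0 and 2 receptors, and all genes 23.1%, 13.2%, 10% and 20.6% of those tested. The 2 were Htr1b and Htr2a each time, and the comparisons with macaque share the macaque mice. DESeq2 and limma voom with sample weights each called 0 receptors in every donor comparison, with the same counts of 0, 2, 0 and 2 at an unadjusted p under 0.05. Over the tested receptors the median log2 fold change was -0.09 for human and 0.13 for squirrel monkey mice against macaque mice, and 0.01 in human against squirrel monkey. The median over all genes tested was at most 0.01 in size in these comparisons. The p-values measure the spread between mice, and the labels name no cage or litter.

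**Figure D2:**
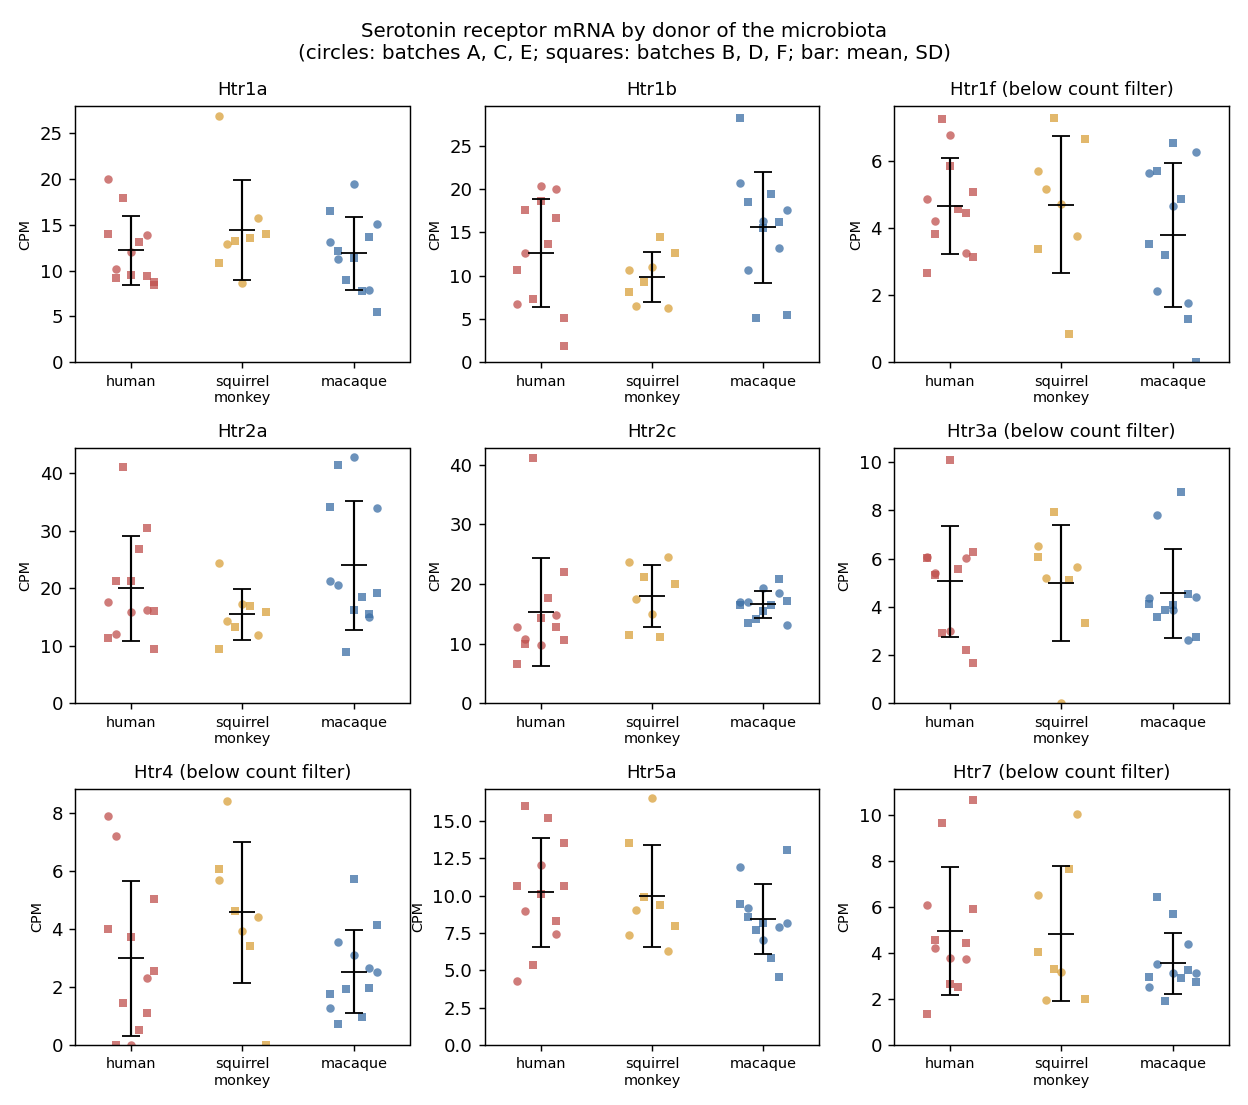
CPM of each receptor gene in each mouse (points) by donor of the microbiota, with the group mean and SD (black); circles are batches A, C and E, squares batches B, D and F, and the vertical scale differs between genes. The groups overlap for every gene, and the 8 squirrel monkey mice lie between 6.30 and 14.5 CPM for Htr1b.

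Htr1b, the inhibitory receptor of axon terminals, was the Gi/o-coupled gene with the widest difference between groups. Among macaque recipients it ran from 5.14 to 28.3 CPM with a median of 16.3. The 8 squirrel monkey mice had 6.30, 6.47, 8.10, 9.25, 10.6, 11.03, 12.6 and 14.5 CPM. The human group ran from 1.89 to 20.4 CPM with a median of 13.1. All ranges overlapped, although 0 of 8 squirrel monkey mice were above the macaque median. The group means were 15.6 ± 6.44 CPM (SD, n = 12) for macaque, 9.86 ± 2.89 (n = 8) for squirrel monkey and 12.6 ± 6.26 (n = 12) for human.

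In squirrel monkey against macaque the log2 fold change of Htr1b was -0.68 ± 0.29 (SE), with a 95% interval from -1.28 to -0.09 (edgeR adjusted p = 0.295). In human against macaque it was -0.30 ± 0.24 (edgeR adjusted p = 0.499), and in human against squirrel monkey 0.38 ± 0.30 (edgeR adjusted p = 0.721). The mean of both groups against macaque gave -0.49 ± 0.23 (edgeR adjusted p = 0.204). The summed level of 8 markers of the upper cortical layers had a median of 1358 CPM (range 1064 to 1626) with macaque microbiota. It was 879 (range 659 to 1228) with squirrel monkey and 1103 (range 631 to 1485) with human microbiota. The markers were not alike: in squirrel monkey against macaque 6 were lower and 2 higher, with 0 called (edgeR, 0.64% of all genes). In human against macaque 6 were again lower and 2 higher, and the 1 called was higher (edgeR, 4.47% of all genes). In the mean of both groups against macaque 1 was called higher and 2 lower (edgeR, 2.7% and 2.81% of all genes). With the upper layer score as a covariate the squirrel monkey difference of Htr1b was -0.05 (edgeR adjusted p = 0.970). In bulk tissue, fewer cells of a type and less RNA per cell cannot be told apart. The GENCODE M21 gene models place an opposite-strand gene, D430036J16Rik, over Htr1b, and that gene was not analysed here, so the Htr1b counts are uncertain to that extent.

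Htr1a, which slows the firing of serotonin and pyramidal neurons, ran from 5.51 to 19.4 CPM in the macaque group (median 11.8) and from 8.46 to 20.1 in the human group (median 11.1). The squirrel monkey mice had 8.67, 10.8, 12.95, 13.2, 13.6, 13.97, 15.7 and 26.9 CPM. The groups overlapped, and the highest value of all 32 mice belonged to squirrel monkey replicate 1. The log2 fold change was 0.26 ± 0.20 (SE) in squirrel monkey against macaque (edgeR adjusted p = 0.634) and 0.08 without that mouse. In human against macaque it was 0.04 ± 0.18, with a 95% interval from -0.33 to 0.41.

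Htr5a, a Gi/o-coupled receptor of which less is known, was the least abundant of the tested genes. It ran from 4.55 to 13.1 CPM with macaque microbiota (median 8.16), from 6.30 to 16.6 with squirrel monkey microbiota (median 9.21) and from 4.25 to 16.02 with human microbiota (median 10.4). The groups overlapped over most of their length. The log2 fold change was 0.23 ± 0.19 (SE) in human against macaque and 0.22 ± 0.22 in squirrel monkey against macaque. Their 95% intervals, -0.16 to 0.62 and -0.22 to 0.66, leave room for differences of either sign. Htr1f, whose mRNA also encodes a Gi/o-coupled receptor, was at 3.80 ± 2.14 CPM (SD, n = 12) in the macaque group, 4.69 ± 2.04 (n = 8) in the squirrel monkey group and 4.66 ± 1.42 (n = 12) in the human group. It had 0 counts in 1 mouse, in the macaque group.

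Htr2a, the excitatory receptor through which classical hallucinogens act, ran from 8.99 to 42.8 CPM in the macaque group with a median of 19.9. The squirrel monkey mice had 9.45, 11.96, 13.2, 14.2, 15.97, 17.01, 17.3 and 24.5 CPM. The human group ran from 9.42 to 41.1 CPM with a median of 16.9. The groups overlapped, and 1 of 8 squirrel monkey mice was above the macaque median. The macaque values included 4 mice at 33.9, 34.2, 41.4 and 42.8 CPM, above all others of that group, which reached 21.3 CPM.

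The group means of Htr2a were 23.97 ± 11.1 CPM (SD, n = 12) for macaque, 15.5 ± 4.50 (n = 8) for squirrel monkey and 19.97 ± 9.10 (n = 12) for human. Squirrel monkey against macaque gave a log2 fold change of -0.66 ± 0.26 (SE) with a 95% interval from -1.19 to -0.13 (edgeR adjusted p = 0.254). The mean of both groups against macaque was -0.45 ± 0.20 (edgeR adjusted p = 0.187). Without batch B, a human batch, that value was -0.65 ± 0.20 and passed the threshold (edgeR adjusted p = 0.0443); under the other alternatives the adjusted p ran from 0.0935 to 0.687. Within the human donors, batch B lay above batch A by 0.56 ± 0.33 on the log2 scale (edgeR adjusted p = 0.508). The upper layer score as a covariate brought the squirrel monkey difference of Htr2a to -0.38.

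Htr2c, a Gq-coupled receptor whose transcript is edited in neurons, varied over a narrow range in the macaque group, at 13.2 to 20.8 CPM (median 16.7). The squirrel monkey mice had 11.1, 11.5, 14.97, 17.5, 19.96, 21.2, 23.6 and 24.6 CPM. In the human group it ran from 6.68 to 41.1 CPM with a median of 12.8, and 3 of 12 human mice were above the macaque median. The human range covered both others. The log2 fold change in human against macaque was -0.09 ± 0.20 (SE; edgeR adjusted p = 0.841).

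That value rested on 1 mouse, human replicate 7, which had 85 counts each of Htr2a and Htr2c. Striatal markers were higher in that mouse than in the other 31: their summed level was 627 CPM, beside at most 253 CPM elsewhere. Penk, an opioid peptide precursor, was at 210 CPM in it and at most 51.0 in the others, and Ppp1r1b, a phosphatase inhibitor that acts downstream of dopamine receptors, was at 199 and at most 151 CPM. Rgs9 was the exception among the 7 markers, at 56.6 CPM beside a highest value of 63.3 elsewhere. The striatum is a tissue where Htr2c is known to be expressed; the part of these markers in the result was not tested. Without that mouse the human mean of Htr2c was 12.9 ± 4.23 CPM (SD, n = 11) and the log2 fold change against macaque -0.35, with an adjusted p that stayed above the threshold at 0.166 (edgeR). Htr2a in human against macaque went from -0.24 ± 0.22 to -0.40.

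Htr4, Htr7 and Htr3a were measured with about 5 to 7 counts per mouse. Htr4 was at 2.52 ± 1.44 CPM (SD, n = 12) in the macaque group, 4.57 ± 2.42 (n = 8) in the squirrel monkey group and 2.98 ± 2.66 (n = 12) in the human group, with 0 counts in 3 mice. Fitted without the count filter, over 23685 genes, its log2 fold change in squirrel monkey against macaque was 0.86 ± 0.44 (SE), with a 95% interval from -0.02 to 1.74 (edgeR adjusted p = 0.513). Htr7 was at 3.55 ± 1.32 CPM (SD, n = 12), 4.84 ± 2.94 (n = 8) and 4.97 ± 2.79 (n = 12) in the same order of groups. Its log2 fold change in human against macaque was 0.50 ± 0.29 (edgeR adjusted p = 0.426).

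Htr3a was at 4.56 ± 1.84 CPM (SD, n = 12) in the macaque group, 4.98 ± 2.40 (n = 8) in the squirrel monkey group and 5.05 ± 2.30 (n = 12) in the human group. These 3 means lay within 0.489 CPM of each other, less than 1 count in a mouse of median depth. At such counts only wide differences could have been detected: the 95% interval of Htr3a in human against macaque ran from -0.35 to 0.73 on the log2 scale. The opposite-strand gene Gm32335 overlaps Htr3a in the gene models and was not analysed here.

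**Figure D3:**
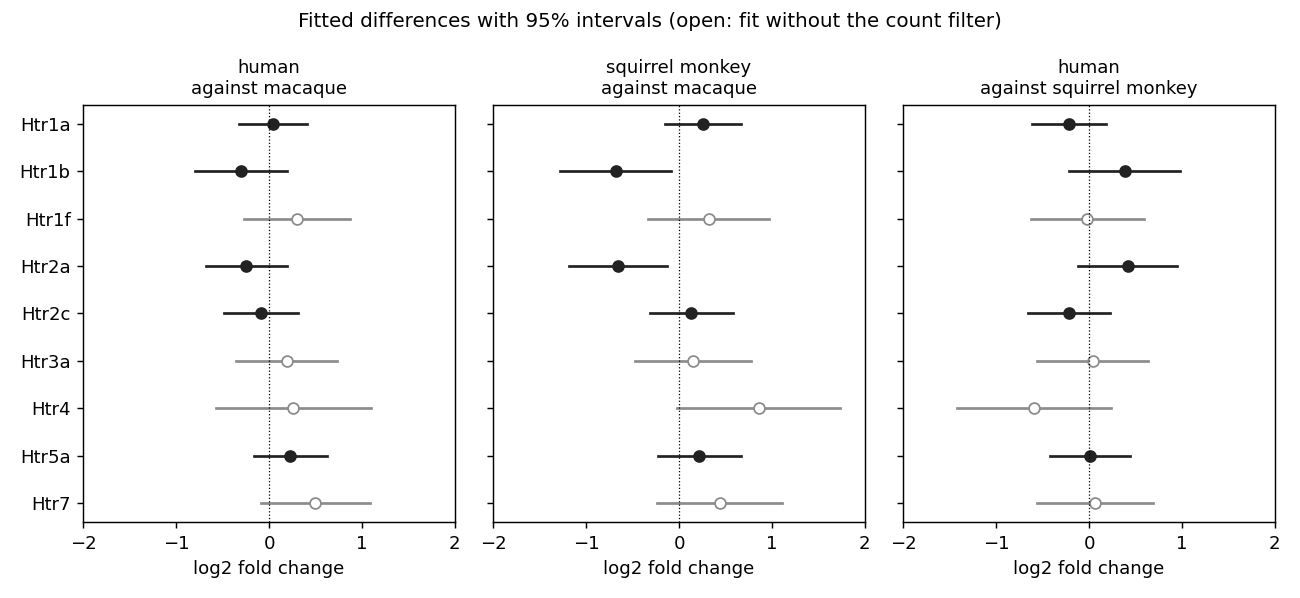
Fitted log2 fold change (point) with its 95% interval (line) for each receptor gene in 3 donor comparisons; filled points come from the fit with the count filter and open points, for the 4 genes of low counts, from the fit without it. The intervals of Htr1b and Htr2a in squirrel monkey against macaque (upper ends -0.09 and -0.13) exclude 0 before adjustment, and the other intervals cross it.

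Batches of the same donor species were compared in a fit on the 6 batches. Of the 5 tested receptors 0 were called in batch B against A (0.0237% of all genes), 0 in D against C (0%) and 0 in F against E (0%), and 0 in each had an unadjusted p under 0.05. Over all genes that share was 11.6%, 6.98% and 3.15%. The log2 differences between batches ran from -0.37 for Htr1b to 0.56 for Htr2a between the human batches, from -0.33 to 0.38 between those of squirrel monkey and from -0.29 to -0.03 between those of macaque. For Htr2a the difference between the human batches (0.56) exceeded that between human and macaque mice (-0.24) in size. It was smaller in size than that between squirrel monkey and macaque mice (-0.66). Batch B held human replicate 7, at 41.1 CPM of Htr2a, and the batches were not compared without that mouse.

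Mice of the same group differed more in some receptors than in others. The biological coefficient of variation that edgeR fitted was 36.9% for Htr1b, 33.8% for Htr2a and 27.9% for Htr2c, beside 19.4%, 17.1% and 18.2% for genes of the same abundance on the fitted trend. Htr1a (21.6% beside 19.5%) and Htr5a (20.7% beside 21.01%) lay near the trend. Counting error alone adds 17.9% for Htr2a to 26.5% for Htr5a at these depths. For Htr1b, Htr2a and Htr2c (19.9%) the biological variation was larger than the counting error. The spread of Htr2c was uneven: its SD was 2.30 CPM in the macaque group (n = 12) and 5.19 in the squirrel monkey group (n = 8). In the human group it was 9.08 CPM (n = 12), and 4.23 (n = 11) without human replicate 7. The part of that mouse in the fitted 27.9% was not tested.

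Part of the spread of Htr1b between mice followed the markers of the upper cortical layers. After removing batch means, Htr1b rose with the upper layer score, the mean log2 CPM of 8 markers such as Cux2 and Rasgrf2 (Pearson r = 0.766, Spearman rho = 0.753, n = 32). The permutation p was 1e-05 for r, the smallest that 100000 permutations within batches can give, or 0.00025 adjusted over 25 relations of 5 receptors with 5 scores, and the adjusted permutation p for rho was 5e-04. Without the 2 mice farthest from the median score r was 0.688. Within donor groups r was 0.889 in human, 0.492 in squirrel monkey and 0.671 in macaque mice. The mouse with the lowest upper layer sum (human replicate 12, 631 CPM) had the lowest Htr1b (1.89 CPM) and the highest sum of oligodendrocyte markers (10330 CPM).

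The upper layer markers were not alike in this, as a description added after the score result was seen; they make up the score and lend it no further support. Lmo4 had the highest r with Htr1b (0.654, rho 0.732), at 0.858 in human, 0.439 in squirrel monkey and 0.506 in macaque mice. Rasgrf2 had r = 0.478, at 0.906 in human mice but 0.126 and 0.0604 in squirrel monkey and macaque mice. Cux1 (-0.172) and Calb1 (0.259) had the lowest r.

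Htr1a moved the opposite way to the deep layer score, the mean of 9 markers such as Fezf2 and Tbr1, with r = -0.534 and rho = -0.524 (n = 32). The permutation p adjusted over the 25 relations was 0.0446 for r and 0.0733 for rho, so that the relation passed on r only. Without the 2 mice farthest from the median score r was -0.598, and within donor groups it was -0.431 (human), -0.576 (squirrel monkey) and -0.617 (macaque). The other 23 relations did not pass, all those of Htr2a and Htr2c included. Among them, Htr5a and the deep layer score had r = 0.440 (adjusted permutation p = 0.179). Htr1b and the myelin score had r = -0.448 (adjusted permutation p = 0.179) over all mice, -0.842 in the human group and 0.163 in the macaque group. None of the 5 receptors passed the test against library total, with n = 32 (smallest adjusted permutation p = 0.462 for Pearson's r and 0.439 for Spearman's rho). Within the 8 squirrel monkey mice r with library total was -0.891 for Htr1b and -0.796 for Htr2a, beside 0.153 and 0.459 in the human group and -0.098 and 0.189 in the macaque group, and these values were not tested.

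**Figure D4:**
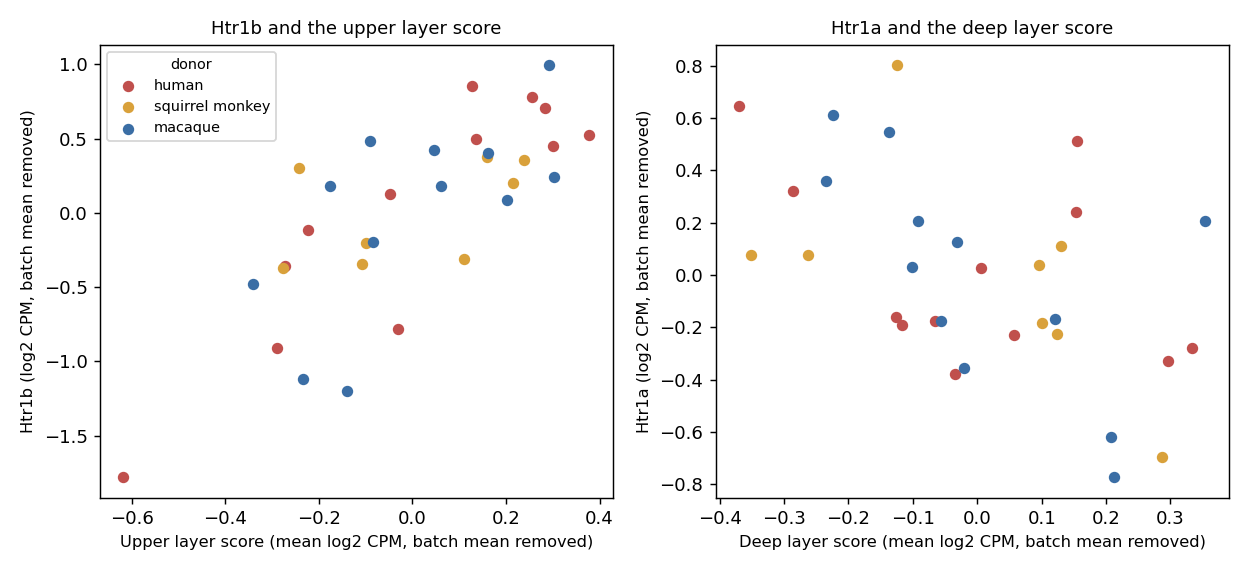
Left, Htr1b against the upper layer score; right, Htr1a against the deep layer score, each point a mouse coloured by donor, both axes in log2 CPM with batch means removed. Htr1b rises with the upper layer score (r = 0.766) and Htr1a falls with the deep layer score (r = -0.534) in mice of each donor.

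The receptors also moved with each other. Of 10 pairs, 4 passed an adjusted permutation test on Pearson's r, with batch means removed and n = 32. Htr1a and Htr2a, an inhibitory and an excitatory receptor of pyramidal neurons, had r = 0.516 (rho = 0.505) with an adjusted permutation p of 0.0277, and within groups r was 0.452 (human), 0.518 (squirrel monkey) and 0.587 (macaque). Htr1b and Htr2a had r = 0.536 (rho = 0.512) with an adjusted permutation p of 0.0277. That pair rested in part on human replicate 12 and macaque replicate 7, without which r was 0.331. Htr5a ran against Htr1a (r = -0.550) and against Htr2c (r = -0.463), with adjusted permutation p of 0.0277 and 0.0371, but neither passed on Spearman's rho (adjusted permutation p = 0.0944 for both).

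For the 2 receptors with at least 20 counts per mouse, the genes of most similar pattern were sought among those of at least 20 CPM, as a description over 32 mice with batch means removed. For Htr2a these were Atp2a2 (r = 0.786) and Atp2b2 (0.774), which encode calcium pumps of the endoplasmic reticulum and the plasma membrane, and Mapk10 (0.757), a neuronal stress kinase. For Htr2c they were Nme7 (0.735), Gbf1 (0.732), which acts in Golgi traffic, and Col25a1 (0.725), a membrane collagen of neurons. Without human replicate 7 the Htr2c values were 0.632, 0.667 and 0.637. The genes named are the highest of 8230 compared with Htr2a and of 8231 compared with Htr2c. Their r is thus high in part through that choice.

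Other parts of the pathway were read from lists chosen by function. The remaining receptors Htr1d, Htr2b, Htr3b, Htr5b and Htr6 were at 0.266 to 1.76 CPM and none had enough counts to be tested. Of 4 raphe neuron markers, 3 were near 0, with a mean of 0.381 CPM for Tph2, the enzyme that makes neuronal serotonin, 0.173 for its transporter Slc6a4 and 0.0490 for the factor Fev. The fourth, Slc18a2, the vesicular transporter of all monoamines, was at 10.4 ± 3.13 CPM (SD, n = 32) and above 0 in every mouse. Of 14 genes of serotonin synthesis, transport and breakdown, 8 were tested, and 1 rose and 0 fell in human against macaque (over all genes 4.47% rose and 3.54% fell). It was Spr, sepiapterin reductase, which helps to make the cofactor of tryptophan hydroxylase. Spr was at 14.8 ± 3.69 CPM (SD, n = 12) in the macaque group, 22.2 ± 5.06 (n = 8) in the squirrel monkey group and 23.7 ± 5.38 (n = 12) in the human group, with a log2 fold change of 0.69 ± 0.14 in human against macaque (edgeR adjusted p = 0.00116) and 0.58 ± 0.16 in squirrel monkey against macaque (edgeR adjusted p = 0.0709). The call of Spr in human against macaque was lost in 0 of the 32 fits that left out 1 mouse. Of the 18 other alternatives 2 lost it, and the lowest log2 fold change was 0.10. The 3 tested genes of the kynurenine route, which uses the same tryptophan, had 0 calls in human against macaque (edgeR). At an unadjusted p under 0.05 there were 2, beside 23.1% of all genes. Their log2 fold changes were 0.49 (Acmsd), 0.33 (Kyat3) and 0.03 (Kyat1).

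Downstream of the Gi/o-coupled receptors, 0 of 15 tested genes rose and 4 fell in human against macaque, where 4.47% of all genes rose and 3.54% fell: the G protein subunits Gng2 (log2 fold change -0.31) and Gng3 (-0.20) and the regulators of G protein signalling Rgs4 (-0.40) and Rgs7 (-0.24). The median log2 fold change of the 15 was -0.10. Rgs4, which shortens Gi/o and Gq signals, was at 239 ± 40.3 CPM (SD, n = 12) in the macaque group, 165 ± 17.97 (n = 8) in the squirrel monkey group and 181 ± 48.1 (n = 12) in the human group. It fell in squirrel monkey against macaque too (-0.53 ± 0.12, edgeR adjusted p = 0.0257), 1 of 15 beside 0.253% of all genes. With the myelin score as a covariate Rgs4 no longer passed in either comparison (-0.31 and -0.41, edgeR adjusted p = 0.0571 and 0.154). In the mean of both groups against macaque it still passed with that covariate (-0.36, edgeR adjusted p = 0.0262). Beside these changes the summed oligodendrocyte markers had medians of 996 CPM (macaque), 1966 (squirrel monkey) and 1321 (human). Of the fits that left out 1 of the 32 mice, 10 lost the call of Gng3, and 4 that of Rgs4 in squirrel monkey against macaque (squirrel monkey replicates 1, 2 and 7 and macaque replicate 8, largest edgeR adjusted p = 0.0794). In human against macaque, the 18 other alternatives lost the call of Gng3 in 11, Rgs7 in 8, Rgs4 in 6 and Gng2 in 2.

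On the Gq side 1 of 11 tested genes rose and 0 fell in human against macaque, on the Gs side 1 of 21 and 0, and among receptor partners 1 of 14 and 0. Over all genes 4.47% rose and 3.54% fell, so that 1 gene in lists of these sizes is near the background. The Gq gene was Prkca (0.61, edgeR adjusted p = 0.0137), a protein kinase C. Its highest value, 235 CPM, belonged to human replicate 7, the mouse with high striatal markers; without it the log2 fold change was 0.48 (edgeR adjusted p = 0.0382), and with the myelin score as a covariate 0.37 (edgeR adjusted p = 0.0859). The Gs gene was Prkaca (0.26, edgeR adjusted p = 0.0493), the catalytic subunit of protein kinase A, which lost its call in 20 of the 32 fits that left out 1 mouse. Among the 18 other alternatives, 10 lost the call of Prkaca and 8 that of Prkca. Both genes changed sign under some alternative, with lowest log2 fold changes of -0.22 (Prkaca) and -0.07 (Prkca). The partner was Dlg4, a scaffold of the postsynaptic density that binds Htr2a and Htr2c, at 166 ± 23.7 CPM (SD, n = 12) in the macaque and 247 ± 48.4 (n = 12) in the human group (0.58 ± 0.09, edgeR adjusted p = 3.28e-05), and its call held in all 32 fits that left out 1 mouse. Of the 18 other alternatives, 1 lost the call of Dlg4. In squirrel monkey against macaque these 3 lists had 0 calls (edgeR), with 3, 5 and 5 genes at an unadjusted p under 0.05 (0.64% and 13.2% over all genes), led by Rgs2 (-0.42), Prkaca (0.33) and Fkbp5 (0.45). Fkbp5 stood on the list of partners as drawn up here, and no binding to a serotonin receptor is claimed for it. In the mean of both groups against macaque, 1 of 11 genes rose and 1 fell on the Gq side (edgeR). On the Gs side 2 of 21 rose and 1 fell, and among receptor partners 1 of 14 rose and 1 fell. Over all genes 2.7% rose and 2.81% fell in that comparison. Those that fell were Rgs2 (-0.36), Prkar1b (-0.17) and S100a10 (-0.27), which binds Htr1b and Htr4. Rapgef3 (0.45), a cyclic AMP sensor, rose beside Prkca, Prkaca and Dlg4. Of the 32 fits that left out 1 mouse, 19 lost the call of Rgs2, 22 that of Prkar1b and 22 that of S100a10. Rapgef3 lost its call in 7 of them, Prkca in 16, and Prkaca and Dlg4 in 0. In the 18 other alternatives calls were lost in 2 (Dlg4), 5 (Prkaca), 10 (Rapgef3), 12 (Rgs2 and Prkca) and 13 (Prkar1b and S100a10).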

How the data were processed

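TagSeq libraries from total RNA were sequenced from 1 end, per the labels' protocols. The deposited table holds raw whole-number counts per Ensembl gene that the authors made, on build GRCm39 per the submitters' processing notes; not given in the sources used here are aligner, counter, annotation and use of strand. Symbols were matched by gene ID; 76 of 23958 rows had none (0.031% of counts), and 3 columns that match no sample were not used.

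Counts were fitted with edgeR 4.0.16 in R 4.3.3 (quasi-likelihood test, TMM factors 0.955 to 1.04, filterByExpr with minimum count 10 and total 15) over all 32 mice with no term but donor group; adjusted p-values are Benjamini-Hochberg over all 12651 genes tested. Totals were 1035036 to 2089308 counts, and the 160 within-group pairs of mice differed by more than sampling noise (chi-square per degree of freedom 1.41 to 7.24). Relations used log2 CPM with a prior count of 2, batch means removed and 100000 two-sided permutations within batches. Overlapping gene models came from GENCODE M21, another build than the counts, and no gene coordinates from it are given. Alternatives were DESeq2 1.42.0, limma 3.58.1 voom, other scalings and filters, 4 covariates, counts summed per batch, and leaving out mice or batches. The fit was tested on simulated data. All 9 receptors are named; of each pathway list, the genes past the threshold or, where none passed, up to 4 of smallest p; and for receptors of at least 20 counts per mouse, the 3 genes of at least 20 CPM with the highest r. Receptors and lists were chosen with earlier results of these data known. Some genes of the marker lists are not reported here.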

Additional observations from a re-analysis of the deposited data

Results flagged for a closer look

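Htr1a was at 26.9 CPM in squirrel monkey replicate 1, far above the other 7 mice of that group, the next of which was at 15.7 CPM. The gap is 0.612 of the group's whole range, above Dixon's 95% critical value of 0.526 for 8 mice. It was the only such value among the 9 receptors in the squirrel monkey group, and chance flags about 1 in 20 groups. The same mouse had the highest Htr2a of its group (24.5 CPM). The groups of 12 mice were not tested for this.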

How the results depend on the processing

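The count of receptors past the threshold was 0 in each donor comparison under every alternative run, leaving out each mouse included, with 1 exception: without batch B it was 1 (Htr2a, -0.65) when both other groups' mean was set against macaque. No paired analysis was possible because the labels give the mice no replicate number that groups share. Some values of uncalled receptors changed sign. In human against macaque Htr1a was -0.034 with limma voom, -0.074 with library total as a covariate, -0.29 with the ribosomal protein score, -0.062 without batch A and -0.12 without batch F; Htr1b was 0.00713 with the upper layer score and 0.35 with the ribosomal protein score; Htr2c was 0.065 without batch A and 0.036 without the 5 mice of highest myelin score, an alternative chosen after seeing the data; Htr5a was -0.092 without batch B. In squirrel monkey against macaque Htr2c was -0.21 with the ribosomal protein score and -0.042 without batch C. In human against squirrel monkey Htr5a was -0.0234 with voom, -0.014 with the myelin score, -0.068 with the upper layer score, -0.046 with counts summed per batch, -0.31 without batch B and -0.0257 without batch C. In the mean against macaque Htr2c was -0.057 with voom, -0.068 with library total, -0.041 with the upper layer score, -0.38 with the ribosomal protein score, -0.15 without batch B, -0.064 without batch C and -0.00520 without batch F; Htr1a was -0.14 with the ribosomal protein score and -0.013 without batch F; Htr1b was 0.063 with the ribosomal protein score. Leaving out each mouse gave -0.044 to 0.12 for Htr1a in human against macaque, -0.069 to 0.14 for Htr5a in human against squirrel monkey and -0.11 to 0.060 for Htr2c in the mean against macaque. The causes were not tested.

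The number of all genes called, 1013 in human against macaque, was 574 with library total, 0 with the ribosomal protein score, 506 with counts summed per batch, and 479, 392 and 336 without batch A, E and F. In squirrel monkey against macaque (81) it was 152 with DESeq2, 292 with voom, 25 with the myelin score, 20 with the upper layer score, 0 with the ribosomal protein score, 203 with counts summed per batch, 144, 2, 11 and 0 without batch B, C, E and F, and 22 without the 5 mice of highest myelin score. In human against squirrel monkey (17) it was 1 without the count filter, 91 with DESeq2, 80 with voom, 1 with library total, 2 with the ribosomal protein score, 1 with counts summed per batch, 3, 57, 64, 1, 2 and 4 without batch A to F in turn, and 38 without the 5 mice of highest myelin score. In the mean against macaque (697) it was 318 with the myelin score, 416 with the upper layer score, 0 with the ribosomal protein score, 452, 215, 167 and 72 without batch A, C, E and F, and 384 without the 5 mice. Leaving out each mouse gave 772 to 1153, 24 to 137, 2 to 72 and 492 to 826 in these 4 comparisons. The ribosomal protein score itself differs between human (0.037 to 0.24) and macaque mice (-0.33 to -0.11), with squirrel monkey mice (-0.17 to 0.35) overlapping both. Depth limits the 4 receptors of about 5 to 7 counts per mouse most.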
